A study of Mus musculus with 4 samples.

Results

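The small structural RNA repeats of the mouse genome are the copies of tRNA genes, of small nuclear RNA (snRNA) and small cytoplasmic RNA (scRNA) genes, of the RNA of the signal recognition particle (srpRNA) and of ribosomal RNA (rRNA) that RepeatMasker annotates and sums into families. They were taken as every repeat family of the deposited count table whose class was tRNA, snRNA, scRNA, srpRNA or rRNA, which gave 82 of 1562 repeat families in a table of 56404 genes and repeat families. Of the 82, 60 were tRNA, 12 snRNA, 6 scRNA, 1 srpRNA and 3 rRNA families. Total RNA, depleted of rRNA with a Ribo-Zero Plus kit, had been sequenced from 2 libraries of wt mouse embryonic fibroblasts (MEF) and 2 libraries of Top2β-null MEF, all untreated. Top2β is a DNA topoisomerase, an enzyme that passes one DNA duplex through a break in another, and the comparison addressed what its loss does to RNA from genes and DNA repeats. The Top2β-null cells came from Top2β-null mice and were obtained from other laboratories, so that genotype and origin of the line cannot be told apart here. The labels do not say whether the 2 libraries of a group came from separate cultures, and p-values measure the spread between these libraries, which may be technical. With 2 against 2 libraries an exact permutation test of a single value cannot go below p = 0.33, so the tests came from edgeR fits across all features.

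The libraries held 133116830 to 149647278 counts. Structural RNA families took 1.55% to 1.78% of all counts and 7.97% to 8.77% of the counts of repeat families, and the 7SL family alone held 89.1% to 92.3% of their counts. Top2b, the gene disrupted in the null line, had normalized counts of 18259 and 18465 in wt and of 3879 and 3789 in the Top2β-null libraries, a log2 fold change of -2.26. All 8 fibroblast markers were above a mean normalized count of 100, with summed normalized counts of 1278195 and 1302996 in wt and 872518 and 877688 in Top2β-null MEF. Above that level were 0 of 4 epithelial, 0 of 3 leukocyte, 0 of 2 neuronal and 1 of 3 endothelial markers. The endothelial sum went from 121 and 127 in wt to 242 and 254 in Top2β-null MEF. The epithelial sum went from 67.6 and 70.5 in wt to 19.7 and 19.8 in Top2β-null MEF.

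tRNAs carry amino acids to the ribosome, and snRNAs form the cores of the particles that remove introns. U3, U13 and U17, which the repeat annotation lists among the snRNAs, are nucleolar RNAs that guide the processing of pre-ribosomal RNA. Y RNAs and BC1 are small cytoplasmic RNAs, and 7SL RNA is the scaffold of the signal recognition particle, which brings ribosomes to the endoplasmic reticulum. RNA polymerase III transcribes tRNA, 5S rRNA, 7SL, BC1, Y RNA and U6 genes, RNA polymerase II the other spliceosomal snRNAs and U3, and RNA polymerase I the large rRNAs. All these RNAs lack long poly(A) tails apart from internal A-rich stretches, and mature tRNAs are short, folded and modified, so that total RNA libraries capture them poorly. Their genes also occur in many near-identical copies, and how reads that fit several of them were counted is not given in the sources used here, so that values of single copies are uncertain.

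The sequences of 3 genes carry the contrasts described below. They are printed from the GENCODE M21 transcripts on GRCm38 (mm10), 5′ to 3′ in DNA letters. Rnu3a (chr10:40258467-40258680, plus strand) encodes U3, and the capitals mark its box C and its last box D letters. Rnu1a1 (chr11:87422867-87423030, plus strand) and Rnu1b2 (chr3:96374021-96374185, plus strand) encode forms of U1, with the stretch that pairs with the 5′ splice site and the Sm protein site in capitals.
Rnu3a: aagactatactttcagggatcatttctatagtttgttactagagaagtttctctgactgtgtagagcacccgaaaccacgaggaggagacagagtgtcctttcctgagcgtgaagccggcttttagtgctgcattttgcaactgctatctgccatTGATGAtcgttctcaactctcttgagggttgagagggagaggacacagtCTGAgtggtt
Rnu1a1: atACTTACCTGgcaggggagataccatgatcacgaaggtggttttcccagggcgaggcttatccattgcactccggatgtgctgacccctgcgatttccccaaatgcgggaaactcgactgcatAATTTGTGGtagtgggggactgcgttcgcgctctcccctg
Rnu1b2: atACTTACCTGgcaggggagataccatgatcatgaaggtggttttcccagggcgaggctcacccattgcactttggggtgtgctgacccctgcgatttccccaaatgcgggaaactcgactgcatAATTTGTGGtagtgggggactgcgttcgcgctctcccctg
Rnu1a1 and Rnu1b2 were 95.8% identical with 7 edits between them, all outside the capitals. Rnu3a and its paralog Rnu3b1 were 85.2% identical.

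A count of 10 or more in 2 or more libraries was met by 73 of the 82 families, which were tested. The 9 others had few or no counts: U8, U14, HY5, tRNA-Gln-CAA_, tRNA-His-CAY, tRNA-Leu-TTA(m), tRNA-Pro-CCG, tRNA-Ser-TCA and tRNA-Tyr-TAT. At an adjusted p below 0.05 (edgeR quasi-likelihood test, Benjamini-Hochberg over 26566 features), 20 families rose in Top2β-null MEF, 7 fell and 46 did not pass the test. In the background, 32.5% of all features were called higher and 32.5% lower, and every count of called families or gene copies given here is read beside these shares. One of the 20, tRNA-Thr-ACG, passed the filter through the Top2β-null libraries alone. Among all tested repeat families 27.6% were called higher and 12.5% lower, against 27.4% and 9.59% of the structural RNA families, so that their shares stood near those of repeats as a whole. The median log2 fold change was 0.14 over the 73 families, 0.04 over all repeat families and 0.0027 over all features.

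By the study's cut-offs (adjusted p below 0.05, absolute log2 fold change above 1 and mean normalized count above 100), 1 family was higher, tRNA-Ala-GCY, and 1 was lower, U3. Without wt replicate 1 there were 2 higher and 0 lower families, and without wt replicate 2 or Top2β-null replicate 1 there were 3 higher. Over all features the cut-offs called 5.27% higher and 4.97% lower. The values of the groups did not overlap in 50 families, 36 with the higher values in Top2β-null MEF and 14 with the lower ones, where the background was 40.3% of features for higher and 40.2% for lower values. Changes were mostly small at high counts: among the 43 families with a mean above 100, the median standard error of the log2 fold change was 0.11, and the smallest log2 fold change called was 0.22 in size. Among the 30 below that level the median standard error was 0.29 and the smallest change called was 0.60.

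**Figure D1:**
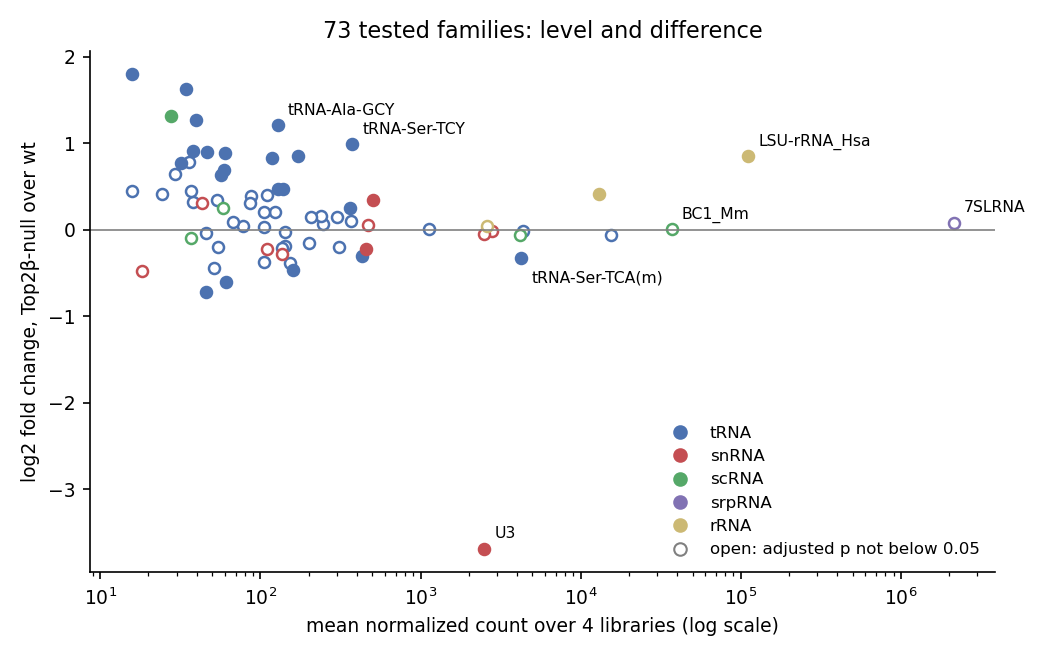
Log2 fold change of Top2β-null over wt MEF (vertical axis) against the mean normalized count over the 4 libraries (horizontal log axis) for the 73 tested families, 1 point per family, filled where the adjusted p was below 0.05. The families with means above 1000 lie near 0 except U3, the 2 large rRNA families and tRNA-Ser-TCA(m).

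U3 was the family with the greatest change in size, and it rested on 1 library. Its normalized counts were 8925 and 343 in wt and 358 and 357 in Top2β-null MEF. Only wt replicate 1 was high, and the other 3 libraries lay close together. The wt mean was 4634 ± 6069 (SD, n = 2), that of Top2β-null MEF was 357 ± 1.27 (SD, n = 2), and the log2 fold change of -3.69 (SE 0.88) had an adjusted p of 0.00158 in edgeR and of 0.0535 in DESeq2. Without wt replicate 1 the log2 fold change was 0.05. That library held 89.4% of the normalized counts of the family, and the next highest share in 1 library among the 17952 features with a mean above 100 was 58.1%. The ratio between the wt libraries was 26.0, whereas the next highest ratio between replicates was 2.53 over all these features and 1.95 among the other structural RNA families with a mean above 100. The median ratio was 1.09 in these families.

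The annotated U3 genes did not show this split. Rnu3a had normalized counts of 905 and 1020 in wt and of 1125 and 1016 in Top2β-null MEF (log2 fold change 0.15, adjusted p 0.0641). Summed over the 10 loci with at least 90% identity to a U3 gene, the normalized counts were 1408, 1491, 1848 and 1753, with wt replicate 1 the lowest, and the log2 difference was 0.31. Of 6 copies tested, 3 rose and 1 fell, beside 32.5% of all features in each direction, and the 1 that fell, Gm22865, met the count filter only through wt. Rnu3b1 rose from 231 and 198 to 357 and 327, with a log2 fold change of 0.67. 

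**Figure D2:**
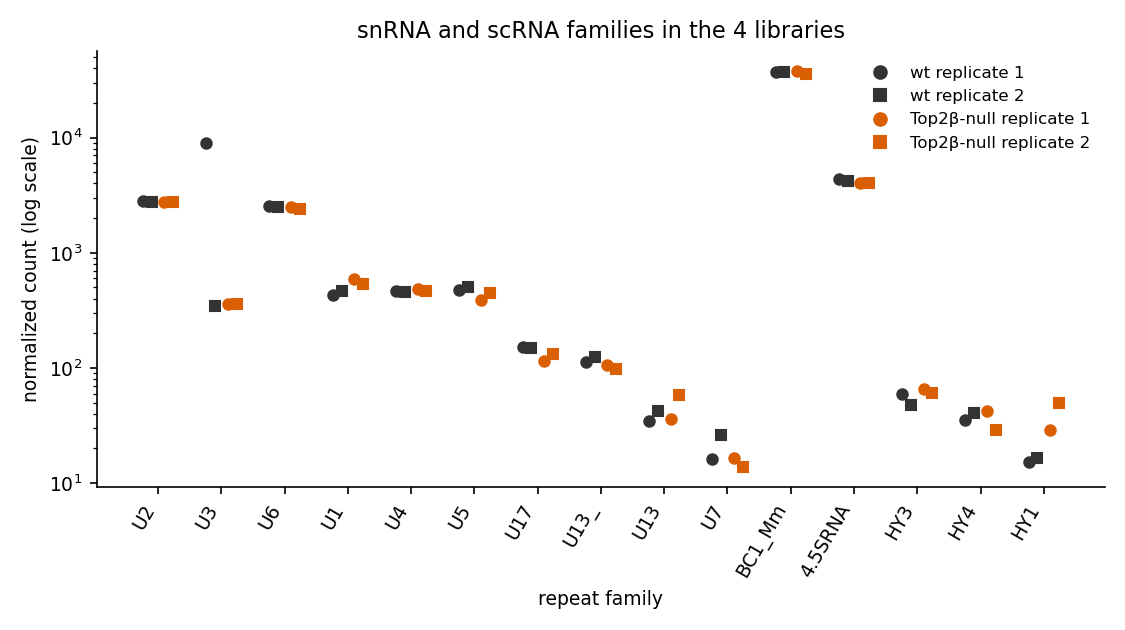
Normalized counts (vertical log axis) of the tested snRNA and scRNA families in the 4 libraries, 1 point per library. U3 has 1 wt library at 8925 and 3 libraries between 343 and 358, and the points of the other families above 100 lie close together.

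Of the 10 tested snRNA families, 1 rose, U1, and 2 fell, U3 and U5. U1 base-pairs with the 5′ splice site at the start of spliceosome assembly. Its normalized counts were 426 and 467 in wt and 594 and 538 in Top2β-null MEF. Both null libraries were above both wt libraries, a 1.27-fold difference (log2 fold change 0.34, SE 0.08, adjusted p 0.00146), which ranged from 0.26 to 0.43 when each library was left out. U5, which aligns the exon ends, had 472 and 508 in wt and 391 and 451 in Top2β-null MEF. The groups did not overlap, but the log2 fold change of -0.22 (SE 0.09, adjusted p 0.0358) passed edgeR and not DESeq2, where the adjusted p was 0.182. Without Top2β-null replicate 1 it was -0.083 and without wt replicate 2 -0.18, neither past the test.

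The other spliceosomal families did not pass the test. U2, which pairs with the branch point, had 2812, 2782, 2786 and 2757 in wt replicates 1 and 2 and Top2β-null replicates 1 and 2. U6, which forms the catalytic core, had 2533, 2517, 2490 and 2402 (log2 fold change -0.05, adjusted p 0.35), and its partner U4 had 463, 454, 484 and 465 (0.05, adjusted p 0.59). In all 3 the group means lay closer together than the replicates of the group with the wider spread. U17, a nucleolar RNA of pre-rRNA cleavage, had 153 and 148 in wt and 115 and 133 in Top2β-null MEF (-0.28, adjusted p 0.115). The 2 entries for U13, a box C/D RNA of 18S rRNA maturation, had log2 fold changes of -0.22 (U13_, adjusted p 0.264) and 0.30 (U13, adjusted p 0.383). U7, the histone pre-mRNA processing RNA, was low, at 16.1, 26.1, 16.6 and 13.9 (-0.48, adjusted p 0.312). The snRNA families summed to 15955, 7416, 7377 and 7275, a log2 difference of -0.67 with an SD of 0.55 between replicates. With U3 left out they summed to 7030, 7073, 7019 and 6918, a log2 difference of -0.02.

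The named U1 genes had log2 fold changes from 0.04 to 2.73, where the U1 family had 0.34. Rnu1b6, at the low end, had normalized counts of 75.7, 62.8, 71.5 and 70.3 (adjusted p 0.894). Rnu1a1 rose from 200 and 192 normalized counts in wt to 665 and 712 in Top2β-null MEF (log2 fold change 1.81, SE 0.09, adjusted p 1.64e-11). Rnu1b2 rose from 64.6 and 62.8 to 413 and 434 (2.73, SE 0.13, adjusted p 1.25e-11). Its identical copy Rnu1b1 rose from 20.2 and 19.3 to 136 and 117, and how reads were split between the 2 is uncertain. The most abundant copy, the predicted gene Gm22513, rose from 7918 and 7620 to 10621 and 9826 (0.40). In the other direction, the predicted U1 copy Gm23238 had 2930 and 1839 in wt and 788 and 1287 in Top2β-null MEF (log2 fold change -1.20). Of the 33 loci with at least 90% identity to a U1 gene, 16 were tested, 8 rose and 3 fell, beside 32.5% of all features in each direction. One of the 8, Gm24405, had 0 counts in wt and met the filter only through the null libraries. The U1 loci summed to 15049 and 13483 in wt and 15225 and 15156 in Top2β-null MEF, a log2 difference of 0.09. These sums were far above the counts of the U1 repeat family, so that the family value is not the level of U1 RNA. The gene loci of U2, U5, U7 and U17 likewise summed to more than the families of the same name.

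The U2 and U5 copies also moved in both directions, and their counts stand beside 32.5% of all features called in each direction. Of 12 tested U2 copies, 8 rose and 1 fell. Rnu2-10 rose from 486 and 426 to 1088 and 1066 (log2 fold change 1.24), while Gm25939 fell from 5766 and 6132 to 2618 and 2644 (-1.18). The sum of the U2 copies was 13633 and 13961 in wt and 17066 and 16983 in Top2β-null MEF, a log2 difference of 0.30. Of 7 tested U5 copies, 4 rose and 2 fell. The predicted copy Gm22265 rose from 68.6 and 90.8 to 411 and 521 (2.54), and Gm25313 fell from 180 and 153 to 52.8 and 71.3 (-1.41). The U5 copies together had the higher sum in Top2β-null MEF, from 1302 and 1164 to 2160 and 2543, a log2 difference of 0.93, opposite in sign to the U5 repeat family. Of 42 tested U6 copies among 304 loci, 3 rose and 5 fell, lower shares than in that background. Of the 3 and of the 5, 1 each met the filter through 1 group alone. Most of the 42 had means below 100 normalized counts, where families had larger standard errors, and the low shares are not read as stability. Whether the reads came from the copy or from a longer transcript over it was not tested.

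**Figure D3:**
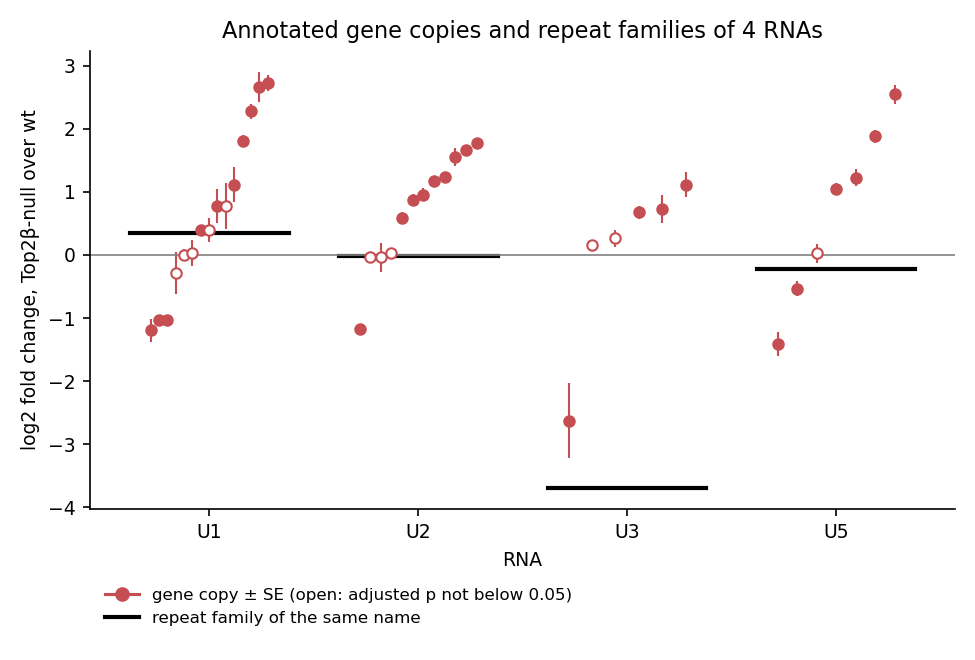
Log2 fold change of Top2β-null over wt MEF (vertical axis) of 40 tested gene copies of U1, U2, U3 and U5 (1 point per copy, 1 further copy with 3 or fewer counts in wt not drawn) beside the value of the repeat family of the same RNA. Of the 41 tested copies 23 rose and 7 fell, beside 32.5% of all features in each direction, and the copies of each RNA spread over both signs.

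Genes of the low snRNA families were read beside them. Rnu7, the U7 gene, had 49.5 and 47.3 in wt and 80.8 and 121 in Top2β-null MEF (log2 fold change 1.06). Snord13, the U13 gene (chr8:31149864-31149967, minus strand), rose from 121 and 99.5 to 200 and 206 (0.88, adjusted p 6.06e-05). Both genes were higher in both null libraries. Snora73b, a U17 gene, fell from 2612 and 2684 to 1979 and 1936 (-0.44), and its paralog Snora73a had a log2 fold change of -0.12. Rmrp, the RNA of an endonuclease that cleaves pre-rRNA, fell from 55667 and 61308 to 41915 and 39979 (-0.51).

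RepeatMasker names the tRNA families by amino acid and codon, with Y for C or T and (m) for a mitochondrial type. What a trailing _ means is not given in the sources used here. Of the 54 tested tRNA families, 16 rose in Top2β-null MEF, 5 fell and 33 did not pass the test. These are 29.6% and 9.26% of them, near the shares of 27.6% and 12.5% among all repeat families, where all features had 32.5% in each direction. The median log2 fold change was 0.20. The levels were uneven: the 4 highest families held 77.8% to 82.0% of tRNA counts. These were tRNA-Ala-GCY_, tRNA-Ala-GCA, tRNA-Ser-TCA(m) and tRNA-Ala-GCG.

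tRNA-Ala-GCY_ had normalized counts of 15789 and 15642 in wt and 15756 and 14449 in Top2β-null MEF (log2 fold change -0.06, SE 0.03, adjusted p 0.143). tRNA-Ala-GCA had 4509, 4298, 4384 and 4306 in the same order (-0.02, adjusted p 0.648), and tRNA-Ala-GCG had 1154, 1087, 1157 and 1094 (0.01, adjusted p 0.923). In all 3 alanine families the groups overlapped. By contrast the low alanine family tRNA-Ala-GCY rose from 76.7 and 78.2 to 166 and 192, a 2.31-fold difference (1.21, SE 0.16, adjusted p 6.27e-06), and the log2 fold change ranged from 1.11 to 1.35 when each library was left out. It was the tRNA family past the study's cut-offs. ID elements, short interspersed repeats related to BC1 and tRNA-Ala, differed in their sum by 0.0047 on the log2 scale.

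tRNA-Ser-TCA(m), a mitochondrial type of serine tRNA, fell from 4849 and 4572 in wt to 3935 and 3579 in Top2β-null MEF, to 0.798 of the wt level (log2 fold change -0.33, SE 0.04, adjusted p 5.85e-06). The groups did not overlap, and the log2 fold change lay between -0.38 and -0.24 when each library was left out. The mitochondrial genome encodes 2 serine tRNAs, printed here with an arginine tRNA that changed more, and the capitals mark the anticodon with the base on each side. mt-Ts1 (chrM:6870-6938, minus strand) reads UCN codons, mt-Ts2 (chrM:11613-11671, plus strand) AGY codons and mt-Tr (chrM:9808-9875, plus strand) CGN codons.
mt-Ts1: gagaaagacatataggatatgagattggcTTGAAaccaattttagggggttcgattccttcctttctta
mt-Ts2: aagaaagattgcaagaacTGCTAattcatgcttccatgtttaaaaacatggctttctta
mt-Tr: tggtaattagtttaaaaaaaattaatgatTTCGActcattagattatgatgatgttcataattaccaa
mt-Ts1, whose anticodon letters TGA fit the codon TCA, had 887 and 966 in wt and 919 and 924 in Top2β-null MEF (log2 fold change -0.01, adjusted p 0.912). mt-Ts2 fell from 1640 and 1517 to 1218 and 1157 (-0.41), and mt-Tr fell from 2309 and 2193 to 459 and 433 (-2.34, adjusted p 5.85e-15). mt-Tr lies next to mt-Nd3, a subunit gene of respiratory complex I, which fell from 27261 and 25618 to 5394 and 5967 (-2.22). Of the 22 mitochondrial tRNA genes, 17 fell and 4 did not pass the test, beside a background of 32.5% of all features in each direction. The 1 that rose was mt-Tf, from 102 and 125 to 199 and 202 (0.82). mt-Tg also fell by more than the cut-off, with a log2 fold change of -1.13, and the median of the 22 was -0.45.

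Of the 5 tested serine families, 3 rose and 2 fell. tRNA-Ser-TCY rose 1.99-fold, from 255 and 244 to 454 and 538 (log2 fold change 0.99, SE 0.10, adjusted p 2.22e-07). tRNA-Ser-AGY rose by 0.85 (adjusted p 0.000306) and tRNA-Ser-TCG by 0.63 (adjusted p 0.0406) on the log2 scale. DESeq2 did not call tRNA-Ser-TCG (adjusted p 0.134), and without wt replicate 1 its value was 0.39. The low family tRNA-Ser-TCA_ fell from 66.6 and 47.3 to 34.2 and 34.7 (-0.72, SE 0.27, adjusted p 0.0286), but DESeq2 did not call it (adjusted p 0.128), and without wt replicate 1 the value was -0.47, not past the test. The serine sum, which tRNA-Ser-TCA(m) dominates, was lower in both null libraries by 0.18 on the log2 scale. Over the 20 amino acids, the sum was higher in both null libraries than in both wt libraries for 10 and lower for 4, and the groups overlapped for 6. Over all features the background was 40.3% higher and 40.2% lower without overlap. Leucine, glutamine and tryptophan were among the higher sums, by 0.40, 0.31 and 0.83, and histidine was among the lower ones, by -0.22.

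The other families with the greatest called increases were low. tRNA-Thr-ACG had 9.08 and 4.83 in wt and 28 and 20.8 in Top2β-null MEF (log2 fold change 1.80, SE 0.45, adjusted p 0.00254). With raw counts of 9 and 5 in wt it met the filter only through the group where it is high, so that its difference is a description, and it could not be fitted without either null library. tRNA-Ile-ATA rose from 17.2 and 16.4 to 55.9 and 48.5 (1.63, SE 0.31, adjusted p 0.000207), and tRNA-Gln-CAA rose from 22.2 and 24.1 to 48.7 and 63.4 (1.27, SE 0.29, adjusted p 0.00113). In the last 2 families both null libraries stood clear of both wt libraries. tRNA-Leu-TTG rose from 24.2 and 28 to 53.9 and 44.6 (0.91, SE 0.29, adjusted p 0.0113), a call that DESeq2 did not make (adjusted p 0.0672) and that was lost without wt replicate 1 or Top2β-null replicate 1.

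Of the families that fell, 3 remain to be given. tRNA-Gly-GGY, which carries glycine, had 424 and 535 in wt and 380 and 395 in Top2β-null MEF (log2 fold change -0.31, SE 0.10, adjusted p 0.0136). tRNA-Val-GTY had 156 and 212 in wt and 150 and 118 in Top2β-null MEF (-0.46, SE 0.17, adjusted p 0.0257). tRNA-Glu-GAA fell from 82.8 and 63.7 to 49.7 and 46.5 (-0.60, SE 0.23, adjusted p 0.0332). None of the 3 was called by DESeq2. Without wt replicate 2, tRNA-Gly-GGY had a log2 fold change of -0.14 (adjusted p 0.295) and tRNA-Val-GTY of -0.24 (adjusted p 0.301), and without Top2β-null replicate 2 tRNA-Val-GTY had -0.28 (adjusted p 0.168). The tRNA-Glu-GAA call was lost without wt replicate 1 or either null library.

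**Figure D4:**
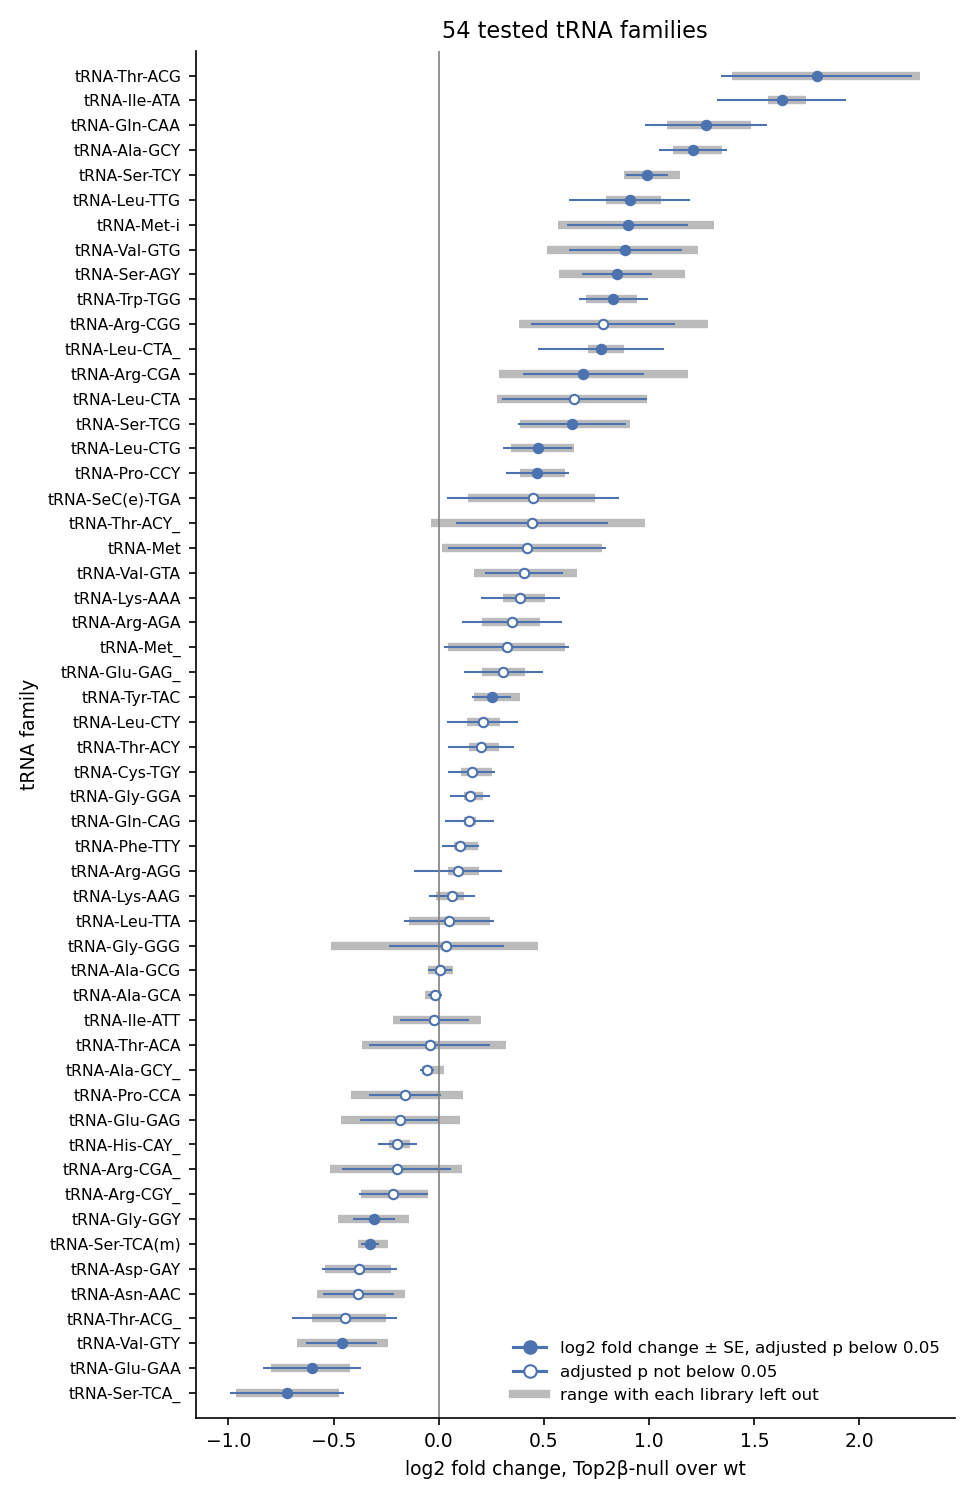
Log2 fold change of Top2β-null over wt MEF (horizontal axis) of the 54 tested tRNA families (vertical axis), with bars for the SE, grey bands for the range with each library left out and filled points for an adjusted p below 0.05. Of the families 37 lie above 0 and 17 below it, and 16 rose and 5 fell, beside 32.5% of all features in each direction.

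Dependence on a single library was recorded for a family when leaving out 1 library turned the sign of its log2 fold change, when it moved the log2 fold change by over 1.5 times and by more than 0.58, or when 1 library held over 50% of its normalized counts. It was recorded for 18 of the 73 families, all of them through a turn of sign, and 1 of the 18, U3, was called. The others did not pass the test. Only U3 also met the rules on size and share. A turn of sign is easily met where the log2 fold change is near 0, as for BC1_Mm (0.01), U2 (-0.01) and tRNA-Ala-GCG (0.01). Examples with means above 100 were tRNA-Gly-GGG at 130, 77.3, 71.5 and 140 (log2 fold change 0.04, -0.51 to 0.47 when each library was left out), tRNA-Pro-CCA at 250, 173, 162 and 216, tRNA-Glu-GAG at 170, 134, 161 and 107, tRNA-Ile-ATT at 139, 147, 163 and 120, and tRNA-Lys-AAG at 230, 252, 249 and 256. In these 5 families the values of the groups overlapped.

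Of the 27 called families, 10 kept the call whichever library was left out. They were tRNA-Ser-TCY, tRNA-Ser-AGY, tRNA-Ala-GCY, tRNA-Trp-TGG, tRNA-Gln-CAA, tRNA-Ile-ATA, U1, LSU-rRNA_Hsa and SSU-rRNA_Hsa among those that rose and tRNA-Ser-TCA(m) among those that fell. Leaving out a single library kept 17 to 20 of the 27. DESeq2 called 12 of the 27, with 12 families higher and 1 lower in all.

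The number of tRNA genes and the level of a family are described across codons. RefSeq listed 402 tRNA genes that could be assigned, and 44 of 45 codon groups had one. Across the 45 groups Spearman's rho between gene number and mean normalized count was 0.73, and between level and log2 difference it was -0.24 over the 44 groups with counts. These describe codon groups that share the same 4 libraries and are not independent replicates. Cysteine TGY had 56 genes and a mean of 240.0 normalized counts, and isoleucine ATA, one of the families that rose, had 1 gene and a mean of 34.5.

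Of the 5 tested scRNA families 1 rose, HY1. Y RNAs bind the Ro60 protein and take part in RNA quality control and DNA replication. HY1 had 15.1 and 16.4 in wt and 29.0 and 49.5 in Top2β-null MEF (log2 fold change 1.31, SE 0.36, adjusted p 0.00497), and without Top2β-null replicate 2 the difference of 0.89 did not pass the test. Both null libraries were higher, but they differed from each other more than the wt libraries did. Rny1, the mouse Y1 gene (chr6:47788069-47788180, minus strand), rose from 43.4 and 51.2 to 78.7 and 95.1 (0.88, SE 0.22, adjusted p 0.00256). Its sequence is given with the terminal T run, the stop signal of RNA polymerase III, in capitals, beside that of Bc1 (chr7:144914470-144914637, plus strand) with its A box and B box promoter letters in capitals.
Rny1: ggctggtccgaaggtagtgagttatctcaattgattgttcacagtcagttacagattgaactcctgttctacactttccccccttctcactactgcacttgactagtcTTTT
Bc1: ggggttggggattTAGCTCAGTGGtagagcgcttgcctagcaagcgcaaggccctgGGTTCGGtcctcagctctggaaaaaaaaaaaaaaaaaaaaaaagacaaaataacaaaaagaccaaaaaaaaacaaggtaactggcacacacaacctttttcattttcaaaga
HY3 had 59.5, 47.3, 66.3 and 60.4 (log2 fold change 0.25, adjusted p 0.372) and HY4 had 35.3, 40.6, 42.5 and 28.7 (-0.10, adjusted p 0.791), and neither passed the test.

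BC1, a dendritic regulator of translation in neurons, was the highest scRNA family. Its normalized counts were 36792 and 36983 in wt and 38200 and 35897 in Top2β-null MEF (log2 fold change 0.01, SE 0.03, adjusted p 0.87). The Bc1 gene itself was low, at 12.1 and 11.6 in wt and 29.0 and 18.8 in Top2β-null MEF (1.00, SE 0.40, adjusted p 0.04 in edgeR and 0.182 in DESeq2), a small number beside that of the family. The 4.5S RNA family had 4331, 4173, 4067 and 4070 (-0.06, adjusted p 0.112). Neither of the 2 high scRNA families passed the test.

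The 7SL family had 2059699 and 2096175 normalized counts in wt and 2219754 and 2173525 in Top2β-null MEF. Both null libraries were higher, by 0.08 on the log2 scale (SE 0.04), and the difference had an adjusted p of 0.0856 in edgeR and of 0.00141 in DESeq2. Of its genes, Rn7s1 had a log2 fold change of 0.07 (adjusted p 0.0149), Rn7s2 of 0.00 and Rn7s6 of 0.13. Rn7s1 and Rn7s2 are identical in sequence, and how reads were split between them is uncertain. Their values are therefore not read as a difference between the genes. The Alu class of short interspersed repeats, which holds the 7SL-derived B1 elements, differed in sum by -0.02, and the B2 and B4 classes by -0.03 and 0.01. The 7SK family, another RNA polymerase III product that the annotation keeps in a class of its own, had 261385 and 272554 in wt and 360823 and 354853 in Top2β-null MEF, a log2 fold change of 0.42. Its gene Rn7sk, whose RNA holds the elongation factor P-TEFb inactive, rose by 0.43 (adjusted p 9.6e-08).

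Both large rRNA families rose. LSU-rRNA_Hsa, from the large ribosomal subunit, had 69921 and 88560 in wt and 116801 and 168782 in Top2β-null MEF, a 1.80-fold difference (log2 fold change 0.85, SE 0.12, adjusted p 1.09e-05). SSU-rRNA_Hsa, from the small subunit, had 10609 and 11728 in wt and 12316 and 17435 in Top2β-null MEF (0.41, SE 0.10, adjusted p 0.00167). The groups did not overlap, and in both families Top2β-null replicate 2 was the highest library. Leaving out each library gave 0.58 to 1.13 for LSU-rRNA_Hsa and 0.16 to 0.68 for SSU-rRNA_Hsa, and DESeq2 called the first (adjusted p 0.0163) and not the second (0.181).

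Mitochondrial rRNA moved the same way: mt-Rnr1 had 9441 and 11903 in wt and 16121 and 19055 in Top2β-null MEF (log2 fold change 0.72), and mt-Rnr2 had a log2 fold change of 0.63. The abundant rRNA-derived genes differed less, with 0.16 for CT010467.1, 0.14 for Gm42418 and 0.06 for Gm26917 (adjusted p 0.321). Depletion with the kit removes rRNA before sequencing, and the part of unequal depletion in these values was not tested. 5S rRNA, transcribed by RNA polymerase III, had 2642, 2501, 2721 and 2571 (0.04, adjusted p 0.444), without a difference beyond the spread of the replicates.

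**Figure D5:**
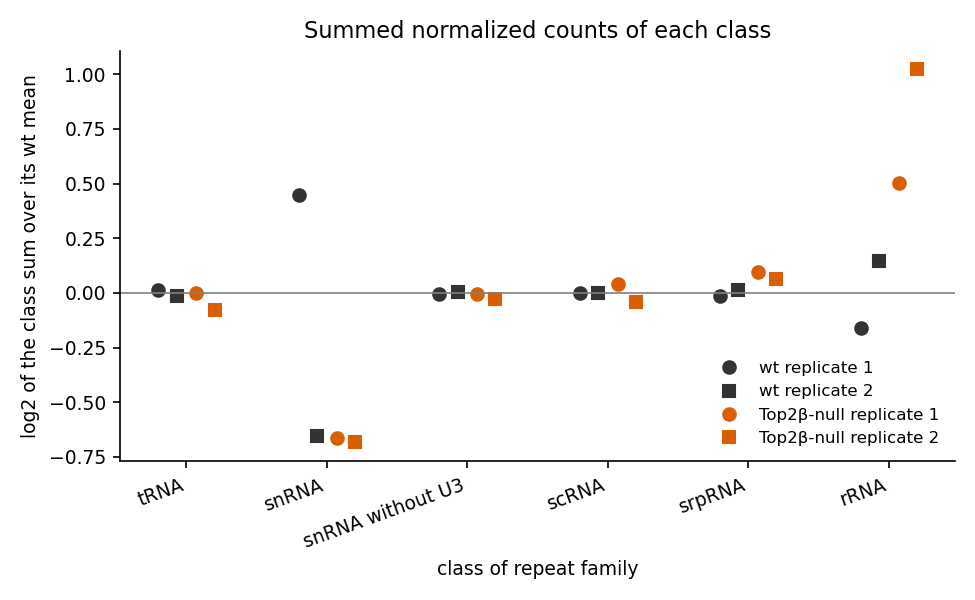
Log2 of the summed normalized counts of each class over its wt mean (vertical axis) for the 4 libraries, by class of repeat family. The snRNA points separate through 1 wt library and close up with U3 left out, and the rRNA points of the Top2β-null libraries lie above those of wt.

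Summed by class, the tRNA families had 32082 and 31418 in wt and 31779 and 30105 in Top2β-null MEF, a log2 difference of -0.037 that is smaller than the SD between replicates of 0.042. Without the 4 highest families the tRNA sum was 5782 and 5820 in wt and 6548 and 6675 in Top2β-null MEF. The log2 difference was 0.19 against an SD of 0.015 from 2 libraries per group. That subset was not planned. It was defined by levels in these data and leaves out tRNA-Ser-TCA(m), which fell. The scRNA sum differed by 0.00028 (SD 0.04), the srpRNA sum by 0.08 (SD 0.02) and the rRNA sum by 0.79 (SD 0.30).

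Annotated genes of the same RNA kinds gave a wider view. Of 1775 such genes 401 were tested, of which 73 rose, 67 fell and 261 did not pass the test, with a median log2 fold change of 0.016. By the study's cut-offs 13 were higher and 9 lower. These counts stand beside backgrounds of 32.5% of all features called in each direction, and of 5.27% higher and 4.97% lower by the cut-offs. Among 286 tested predicted snRNA genes 45 rose and 42 fell, and among 58 tested genes with established names 18 rose and 4 fell.

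The protein genes that make, process or bind these RNAs were counted on lists written with earlier results of these data known, and each count below is to be read beside the 32.5% of all features that rose and the 32.5% that fell. Of 13 tested RNA polymerase III subunits, 9 fell and 2 rose, with a median log2 fold change of -0.36. Polr3d, a subunit that takes part in initiation and termination, fell from 5167 and 5352 to 2126 and 2179 (-1.29), past the study's cut-offs. Of 19 initiation factors and their repressor, 9 fell and 6 rose. Among them the repressor Maf1 (-0.89) and the snRNA promoter factor Snapc2 (-0.77) changed most in size.

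Of 23 tested genes for tRNA end processing, splicing and export, 16 fell and 4 rose. The ribonuclease P subunits Rpp21 (-0.85) and Pop4 (0.87) had the greatest log2 fold changes, in opposite directions. Of 20 cytosolic aminoacyl-tRNA synthetases, which load amino acids onto tRNAs, 14 fell and 4 rose, beside 32.5% of all features in each direction, with a median of -0.41. Farsa (-1.35), Aars (-1.27) and Kars (-1.05), for phenylalanine, alanine and lysine, were past the cut-offs.

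Of 20 snRNP proteins 11 fell and 9 rose, with Snrpf (-0.71) and Snrpc (-0.68), a protein of the U1 particle, changed most. Of 15 tested U3 and box C/D partners 12 fell and 0 rose, and Utp4 (-1.09) and Dcaf13 (-1.02), factors of 18S rRNA processing, were past the cut-offs. Of 8 signal recognition particle proteins 5 fell and 2 rose, with Srp54c at -0.44 and Srp14 at 0.36. Of 6 tested Y and 7SK RNA-binding proteins 4 fell and 2 rose, with Mepce, the capping enzyme of 7SK, at 0.64 and Hexim1, its partner in P-TEFb inhibition, at -0.61. Of 12 genes of the RNA polymerase I machinery 7 fell and 3 rose, with Taf1a at 0.74 and Polr2e, a subunit shared by the RNA polymerases, at -0.47.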

How the data were processed

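Total RNA of 4 untreated MEF libraries (2 wt, 2 Top2β-null) was extracted with TRI Reagent, DNase-treated and made into stranded, rRNA-depleted libraries. Per its methods, the study trimmed reads with Trim Galore! 0.4.0, aligned them to mm10 with STAR 2.5.2 keeping multi-mapping reads, and counted genes (GENCODE M9) and RepeatMasker families with TEtranscripts 1.5.1. The TEtranscripts mode and strand setting are not given in the sources used here, so overlapping and antisense transcripts may share counts. The authors deposited raw counts per gene and repeat family, and no rows lacked a name. Counts were tested here with edgeR 4.0.16 (quasi-likelihood, TMM scaling over genes and repeats, at least 10 counts in 2 libraries, Benjamini-Hochberg over all features) in R 4.3.3. A normalized count is a count divided by the library's relative TMM-scaled size. Depth was 133116830 to 149647278 counts.

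Alternatives were DESeq2 1.42.0, scaling from genes only or to the total count, no filter or 100 counts in every library, repeats fitted alone, a replicate block and leaving out each library. The script was tested on simulated counts. The members and gene lists were chosen with earlier results of these data known. Named were every tested snRNA, scRNA, srpRNA and rRNA family, the 6 highest tRNA families, the 6 with the greatest called rise and fall, those past the study's cut-offs or dependent on 1 library at a mean above 100, and in each protein list the genes past the cut-offs or else the 2 with the greatest change. Single gene copies, codon examples and tRNA-Ser-AGY, tRNA-Ser-TCG and tRNA-Trp-TGG were named after their values were seen. Gene copies were loci of at least 90% identity to a named gene in GENCODE M21, and tRNA gene numbers came from RefSeq.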

Additional observations from a re-analysis of the deposited data

How the results depend on the processing

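Against 20 families higher and 7 lower at an adjusted p below 0.05, DESeq2 gave 12 and 1, the fit of repeats alone gave 9 and 2, and the filter of 100 counts in every library, which tested fewer families, gave 7 higher. Leaving out each library gave 16 to 18 higher and 5 to 7 lower. By the study's cut-offs, the count of 1 higher family became 2 with no filter, with scaling to the total count and with TMM factors computed on genes, 0 with the filter of 100 counts, and 1 to 3 when each library was left out. The 1 lower family, U3, became 0 with DESeq2 and in the fit of repeats alone, and 0 to 1 when each library was left out, with 0 without wt replicate 1. The replicate numbers did not pair the libraries (correlation of deviations 0.0207 over 17952 features), and a replicate block kept 25 of the 27 calls. Beyond the smaller number of families tested, causes of these differences were not tested. Scaling to the total count moved the median log2 fold change of all features to 0.072.

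The class sums moved as follows, as log2 differences. With scaling to the total count the tRNA sum was 0.032, the scRNA sum 0.070 and the srpRNA sum 0.15, and the srpRNA sum was 0.046 with repeats fitted alone. Without U3, an alternative added after seeing the data, the snRNA sum was -0.017. Leaving out each library gave -0.067 to 0.020 for tRNA, -1.14 to -0.032 for snRNA, -0.015 to 0.059 for scRNA, 0.053 to 0.11 for srpRNA and 0.52 to 1.06 for rRNA.

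Signs turned in U3 and in families that did not pass the test. Leaving out each library gave log2 fold changes of -0.082 to 0.022 for tRNA-Ala-GCY_, -0.068 to 0.012 for tRNA-Ala-GCA, -0.050 to 0.066 for tRNA-Ala-GCG, -0.015 to 0.12 for tRNA-Lys-AAG, -0.42 to 0.11 for tRNA-Pro-CCA, -0.46 to 0.10 for tRNA-Glu-GAG, -0.22 to 0.20 for tRNA-Ile-ATT and -0.51 to 0.47 for tRNA-Gly-GGG. The ranges were -0.035 to 0.019 for U2, -4.66 to 0.045 for U3, -0.067 to 0.64 for U13, -0.012 to 0.069 for BC1_Mm, -0.36 to 0.18 for HY4 and -0.013 to 0.10 for 5S. With scaling to the total count the log2 fold change was 0.012 for tRNA-Ala-GCY_, 0.051 for tRNA-Ala-GCA, 0.047 for tRNA-Ile-ATT, 0.057 for U2, 0.023 for U6 and 0.0063 for 4.5SRNA. For U2 it was 0.0058 with TMM factors computed on genes and 0.0040 with no filter. With repeats fitted alone it was -0.028 for tRNA-Ala-GCG and -0.029 for BC1_Mm.

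The main limits were 2 libraries per group, 1 line per genotype, low counts of many tRNA families and near-identical gene copies. Below a mean of 100 normalized counts the smallest called change was 0.60 on the log2 scale.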
